A study of Mus musculus with 11 samples.

Results

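Collagens are secreted or membrane-bound proteins built from 3 chains wound into a triple helix, and each chain has its own gene. Of the 23284 genes in the deposited retinal table, 43 carried a collagen chain symbol, that is, Col, a number, a and a number, and all 43 were taken regardless of their values. Col21a1 and Col26a1 were not found under these names and are not analysed here under them. The samples were mouse retinas at postnatal day 21, 5 of them labelled wild type and 6 labelled Nrl knock-out. Nrl encodes a leucine zipper transcription factor that rod photoreceptors need to form, and knock-out retinas are known to hold cone-like photoreceptors in place of rods. The labels give neither strain nor allele, name no other agent or allele, and do not say whether the samples of a group came from separate animals. P-values below therefore measure the spread between these samples, a part of which may be technical. How mRNA was selected is unclear, since the labels name both polyA selection and ribosomal RNA removal.

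Fibrillar collagens form the fibres of vitreous, sclera and other connective tissue, FACIT collagens sit on the surface of those fibres, and collagen IV forms the network inside basement membranes. In the eye, basement membranes lie at the vitreal surface of the retina, around its vessels and under the pigment epithelium. The 6 collagen IV chains are known to assemble into few kinds of trimer: Col4a1 and Col4a2 products make the widespread one, Col4a3, Col4a4 and Col4a5 products another, and Col4a5 and Col4a6 products one more. Loss of the trimer that contains the Col4a3, Col4a4 and Col4a5 chains causes Alport disease of kidney, ear and eye in humans.

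The libraries held 14907613 to 20685840 reads in genes. Values are size-factor normalized counts, here called counts, and they do not account for gene length. Nrl stood at 37017 ± 1947 counts (SD, n = 5) in wild-type and 51.7 ± 5.1 (SD, n = 6) in knock-out libraries as labelled. The rod gene Gnat1 fell from 321354 to 210 counts and the cone gene Opn1sw rose from 8151 to 111774, so photoreceptor markers of retina were abundant. Replicate 1 of the wild type stood apart on the second principal component, which held 7.34% of the variance (26.5, other wild-type libraries -15.6 to 1.74). Replicate 2 of the knock-out was the highest of its genotype there (19.0), at the end of a spread (other knock-out libraries -13.4 to 10.2). Collagen calls that change without both libraries are given both ways. A gene was tested when it had at least 10 counts in at least 5 of the 11 libraries, which 40 collagens passed. A call is an adjusted p under 0.05 from limma on log2(count + 1), with Benjamini-Hochberg adjustment over all 14584 genes tested.

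The sets of letters that follow are shown because Col4a4, Col4a5, Col4a6 and Col19a1 were among the collagens with the largest differences. Each is the RefSeq GRCm38.p6 window from 250 bases before to 50 bases after a gene's start, read 5′ to 3′ on the gene's own strand. The Col4a4 window is chr1:82586800-82587099 on the minus strand, the Col4a5 window chrX:141475169-141475468 on the plus strand, the Col4a6 window chrX:141474027-141474326 on the minus strand, and the Col19a1 window chr1:24587388-24587687 on the minus strand. Capitals mark TGCTGA, a core of the elements bound by Maf-family factors, of which Nrl is one, and GGGCGG, the GC box, each searched on both strands, so that CCGCCC also marks a GC box.
Col4a4: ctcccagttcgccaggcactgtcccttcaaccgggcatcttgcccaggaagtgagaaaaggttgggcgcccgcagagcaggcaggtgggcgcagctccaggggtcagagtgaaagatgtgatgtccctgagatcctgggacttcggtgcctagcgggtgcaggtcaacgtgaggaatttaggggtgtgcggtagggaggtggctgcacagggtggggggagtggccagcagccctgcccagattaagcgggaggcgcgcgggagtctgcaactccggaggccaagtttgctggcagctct
Col4a5: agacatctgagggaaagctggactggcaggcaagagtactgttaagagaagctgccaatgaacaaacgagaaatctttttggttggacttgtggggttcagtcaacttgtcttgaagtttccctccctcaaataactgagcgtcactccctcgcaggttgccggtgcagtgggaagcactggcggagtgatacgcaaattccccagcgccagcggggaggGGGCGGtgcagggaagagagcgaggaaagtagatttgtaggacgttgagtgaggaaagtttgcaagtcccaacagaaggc
Col4a6: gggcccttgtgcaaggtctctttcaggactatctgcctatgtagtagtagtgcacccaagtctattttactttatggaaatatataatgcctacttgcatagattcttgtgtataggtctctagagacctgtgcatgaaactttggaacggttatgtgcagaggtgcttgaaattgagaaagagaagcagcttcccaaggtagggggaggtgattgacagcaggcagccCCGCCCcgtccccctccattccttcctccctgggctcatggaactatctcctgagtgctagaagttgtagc
Col19a1: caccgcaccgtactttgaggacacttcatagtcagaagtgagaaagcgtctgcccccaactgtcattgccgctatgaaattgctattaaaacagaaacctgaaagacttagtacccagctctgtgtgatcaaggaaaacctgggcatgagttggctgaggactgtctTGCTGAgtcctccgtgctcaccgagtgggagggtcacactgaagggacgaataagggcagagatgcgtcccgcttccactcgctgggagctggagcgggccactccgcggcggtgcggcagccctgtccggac

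A window was found for 35 of the 43 collagens, 38 windows in all, and Col4a3 was among the 8 without one. TGCTGA on either strand was present in 6 of the 38, against 19.5% of all 32851 promoter windows of the table, and the 6 belonged to Col19a1, Col3a1, Col5a1, Col5a3, Col6a1 and Col6a5. In Col19a1 it began at -83 from the start. TAATCC, the core bound by the photoreceptor homeodomain factor Crx, was present in 0 of the 38 windows on either strand and in 7.06% of all windows. The GC box was present in 23 of the 38 and in 35.7% of all windows, and TATAAA in 5 of the 38 and 13.6% of all. These are matches of letters in short windows, not binding sites, and the searched motifs do not overlap each other.

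Of the 40 tested collagens, 13 were called different in Nrl knock-out retina, where 46.3% of all tested genes were called. Higher in the knock-out were 6, Col4a6, Col4a5, Col17a1, Col15a1, Col8a1 and Col6a6, where 23.6% of all tested genes were called higher. Lower were 7, Col4a3, Col4a4, Col19a1, Col22a1, Col5a3, Col9a2 and Col6a2, where 22.7% of all genes were called lower. The share of collagens called was thus below that of all genes, and this difference of shares was not tested. A call with at least a 2-fold difference, a log2 fold change of at least 1 in size, was made for 6 collagens, 3 higher and 3 lower, and for 7.77% of all genes. The libraries of the genotypes did not overlap for 7 collagens, Col4a3, Col4a4, Col4a5, Col4a6, Col19a1, Col17a1 and Col8a1, and for 30.9% of all tested genes. The median log2 fold change of the tested collagens was -0.0022 and that of all tested genes -0.0073, while the median size of the log2 fold change, sign left out, was 0.27 for collagens and 0.19 for all. When libraries were instead scaled to equal totals, the median of all genes moved to 0.13, all-gene calls turned from 3448 higher and 3304 lower to 5861 higher and 1711 lower, and the collagens became 6 higher and 6 lower.

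**Figure D1:**
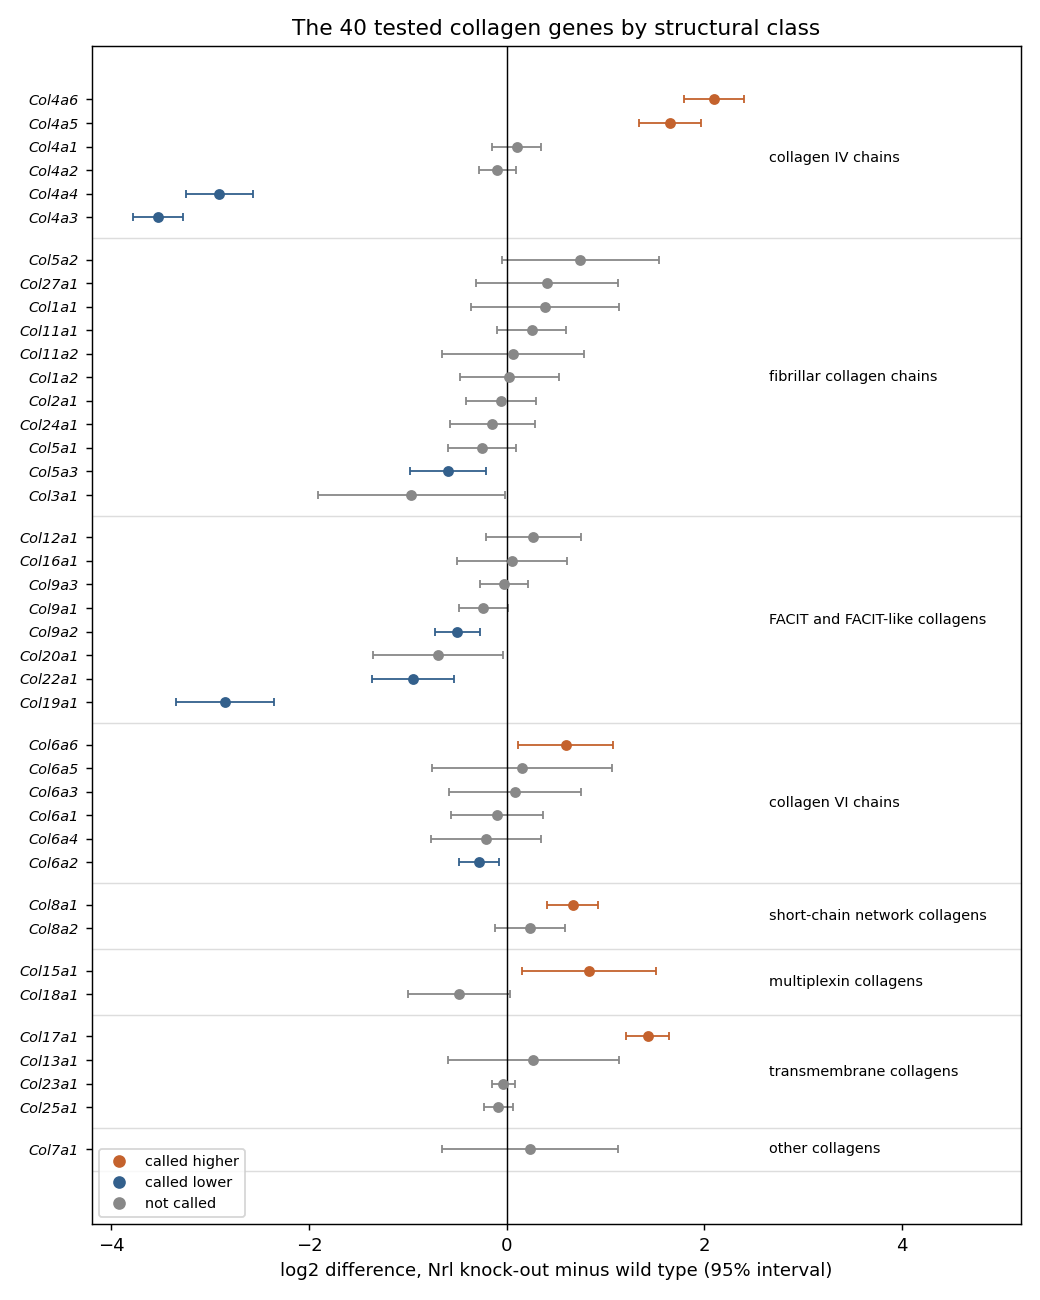
Log2 difference between Nrl knock-out and wild type (x axis, points) with its 95% interval (bars) for the 40 tested collagen genes, grouped by structural class. Col4a3 (-3.53), Col4a4 (-2.91) and Col19a1 (-2.85) lie far to the left, Col4a6 (2.1), Col4a5 (1.65) and Col17a1 (1.43) to the right, and the intervals of the 27 genes that were not called are drawn in grey.

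Among the collagen IV genes, Col4a3 and Col4a4 fell in the knock-out, Col4a5 and Col4a6 rose, and Col4a1 and Col4a2 were not called. Col4a3 was present at 512, 435, 474, 375 and 336 counts in wild-type replicates 1 to 5, and in the 6 knock-out libraries its lowest, median and highest values were 30.3, 34.1 and 44.5. Every wild-type library was above every knock-out library, with no overlap. Its mean was 11.9 times higher in wild type than in knock-out (426 ± 71 against 35.9 ± 4.9 counts, SD, n = 5 and 6), a log2 fold change of -3.53 (SE 0.12, limma adjusted p = 1.6e-14). Col4a4, which encodes its partner chain, stood at 223, 230, 216, 206 and 224 counts in wild type and at 19.3, 26.3 and 39.8 (lowest, median, highest) in the knock-out. The wild-type values lay in a narrow band, far above the others, and the log2 fold change was -2.91 (SE 0.16, limma adjusted p = 1.7e-11). In bulk retina, fewer cells of a type and less RNA per cell cannot be told apart, here or for the other members.

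Col4a5, the chain shared by both minor trimers, moved the other way. It stood at 170, 257, 298, 250 and 341 counts in wild type and at 737, 792 and 944 (lowest, median, highest) in the knock-out. The lowest knock-out library was above the highest wild-type one, by more than the whole wild-type range, and the log2 fold change was 1.65 (SE 0.14, limma adjusted p = 5.5e-07). Col4a6, its partner, stood at 76.7, 76.4, 79.6, 51.3 and 52.1 counts in wild type and at 213, 293 and 357 in the knock-out. These groups did not overlap either, and the log2 fold change was 2.1 (SE 0.14, limma adjusted p = 1.2e-09). The 4 calls held under all 24 alternative settings.

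Col4a1 and Col4a2 encode the widespread basement membrane chains and were the most abundant collagen IV genes in wild type. Col4a1 stood at 556, 773, 787, 760 and 905 counts in wild type and at 656, 826 and 924 (lowest, median, highest) in the knock-out. Col4a2 stood at 676, 768, 733, 822 and 876 counts and at 572, 721 and 836. Both genes overlapped between the genotypes, with log2 fold changes of 0.10 (95% interval -0.15 to 0.35, limma adjusted p = 0.51) and -0.09 (95% interval -0.28 to 0.09, limma adjusted p = 0.41). The exons of Col4a1 and Col4a2 overlap on opposite strands in the annotation. How reads there were counted is uncertain, because the strand setting is not given. The plot of collagen IV counts by library shows these 3 patterns side by side.

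**Figure D2:**
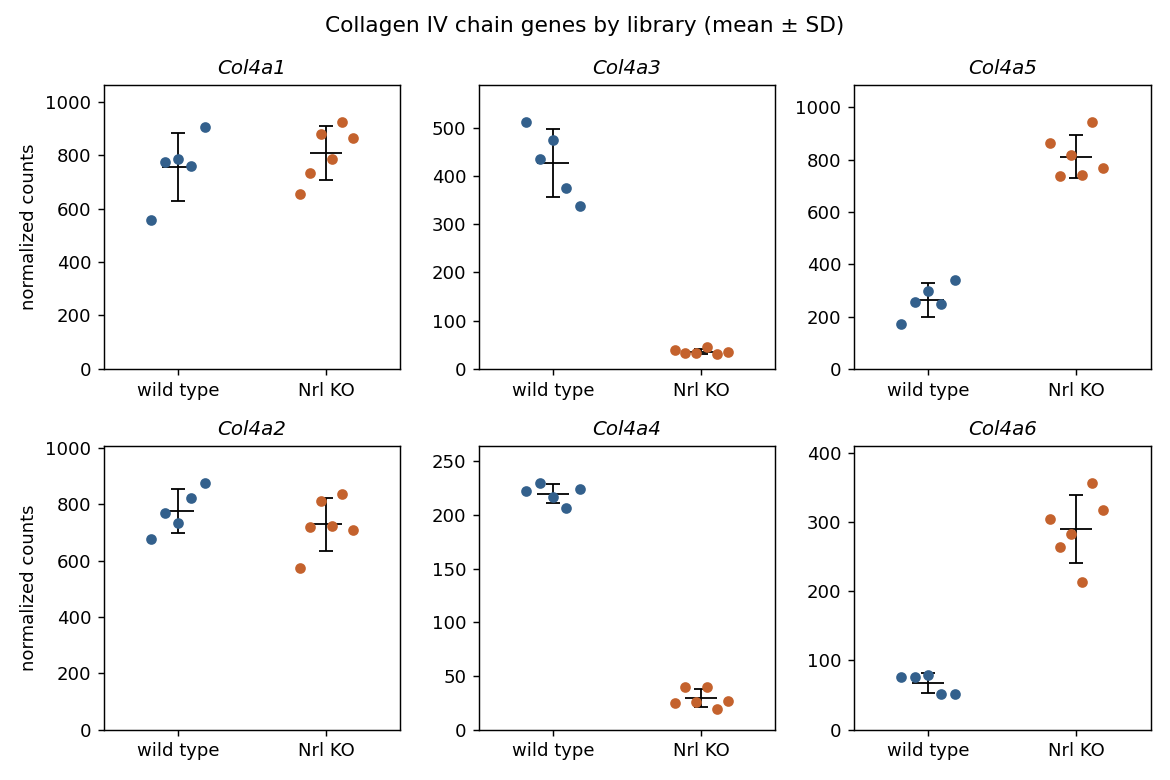
Normalized counts (y axis, linear, from 0) of the 6 collagen IV chain genes in each wild-type (n = 5) and Nrl knock-out (n = 6) library, points, with the mean and SD. Col4a3 and Col4a4 fall to about 36 and 29 counts, Col4a5 and Col4a6 rise to about 812 and 290, and the Col4a1 and Col4a2 points overlap between genotypes.

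Divided by transcript length, the 6 chains can be compared with one another within a library. Col4a3 and Col4a4 together made up 20.4% ± 4.1 (SD, n = 5) of collagen IV counts per kb in wild type and 1.76% ± 0.43 (SD, n = 6) in the knock-out. Col4a5 and Col4a6 together made up 14.05% ± 1.47 and 41.0% ± 3.6, and Col4a1 and Col4a2 together 65.6% ± 3.4 and 57.2% ± 3.5. The sum of the 6 chains was 356 ± 31 counts per kb in wild-type and 410 ± 38 in knock-out libraries, and its ranges overlapped (308 to 394 and 373 to 473). Among wild-type libraries, Col4a3 took 9.98 to 19.4% of the sum, above Col4a4, and in the knock-out each of these 2 chains took at most 1.35%. Col4a5 took 8.45 to 13.3% in wild type and 28.5 to 35.5% in the knock-out. The shares add to a whole, so a rise in one chain lowers the share of the others.

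**Figure D3:**
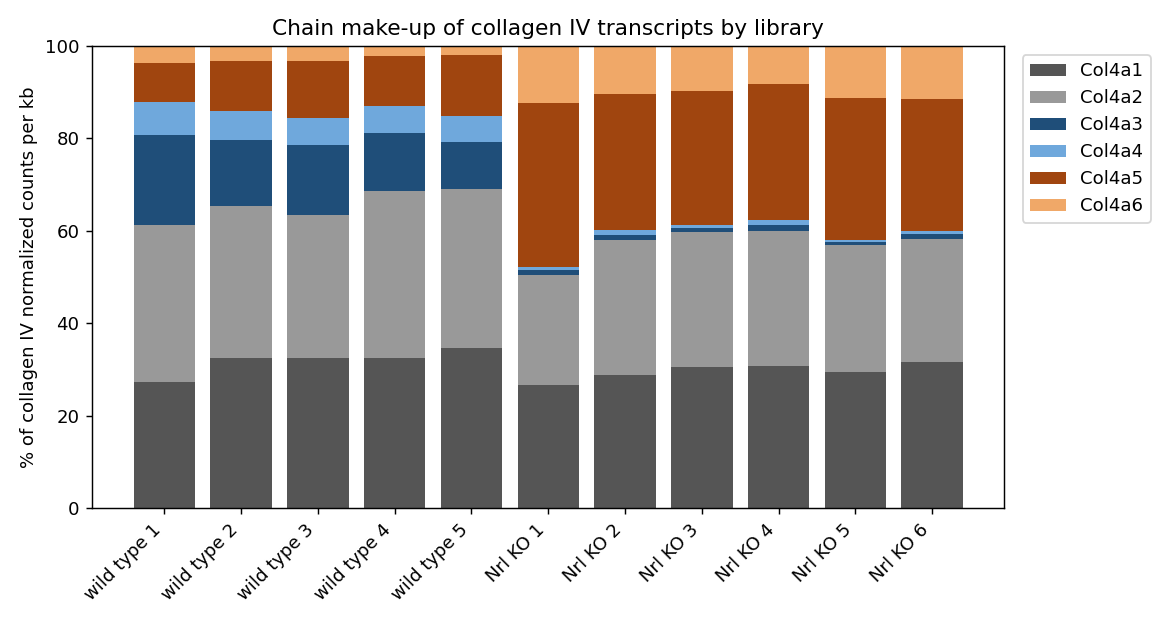
Share of each chain in the summed collagen IV counts per kb of transcript (y axis, percent) in each of the 11 libraries (x axis). The blue Col4a3 and Col4a4 segments average 20.4% in wild-type and 1.76% in knock-out libraries, and the orange Col4a5 and Col4a6 segments 14.05% and 41.0%.

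Among collagens that neighbour each other on a chromosome, 3 pairs lie head to head, and they are the 3 collagen IV pairs. Col4a4 and Col4a3 on chromosome 1 were both lower, Col4a6 and Col4a5 on chromosome X were both higher, and neither Col4a1 nor Col4a2 on chromosome 8 was called. The other neighbours are arranged differently. Col9a1 and Col19a1, tail to tail on chromosome 1, had log2 fold changes of -0.23 (not called) and -2.85 (called). Col3a1 and Col5a2, also tail to tail, had -0.96 and 0.75, neither called. Col6a1 and Col6a2, on the same strand of chromosome 10, had -0.10 (not called) and -0.28 (called). The order and strand of genes came from GRCm38, not from mm9, the build that the submitters' processing notes name.

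The FACIT collagens, which carry several short helices and coat fibrils, held 3 called genes of 8 tested, all lower, where 46.3% of all tested genes were called. Col19a1, known in mice to be made by some neurons of the brain and needed there for certain synapses, changed the most. It stood at 268, 284, 313, 165 and 237 counts in wild type and at 18.5, 39.3 and 47.0 (lowest, median, highest) in the knock-out. No library of one genotype reached the other, and the log2 fold change was -2.85 (SE 0.23, limma adjusted p = 8e-08), a mean of 253 ± 57 against 35.2 ± 11.1. This call also held under all 24 alternatives.

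Col22a1, known as a collagen of the junction between muscle and tendon, stood at 26.4, 45.1, 49.5, 50.2 and 49.1 counts in wild type and at 15.7, 22.3 and 27.4 in the knock-out. Wild-type replicate 1 fell among the knock-out values, and the other 4 wild-type libraries lay above all of them. The log2 fold change was -0.95 (SE 0.20, limma adjusted p = 0.00066). Col9a2, 1 of the 3 chains of collagen IX, which decorates collagen II fibrils in cartilage and vitreous, stood at 183, 151, 212, 156 and 180 counts and at 111, 119 and 160. The groups overlapped only through knock-out replicate 6, and the log2 fold change was -0.50 (SE 0.11, limma adjusted p = 0.0009).

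The 2 other chains of collagen IX were not called. Col9a1, the most abundant FACIT gene, stood at 904, 970, 1010, 939 and 1013 counts in wild type and at 602, 844 and 1004 in the knock-out. Its log2 fold change was -0.23 (95% interval -0.48 to 0.01, limma adjusted p = 0.11), and it was called without knock-out replicate 3 (-0.29, limma adjusted p = 0.040). Col9a3 changed by -0.03 (95% interval -0.27 to 0.21). Col20a1 was spread from 205 to 507 counts in wild type and from 153 to 393 in the knock-out, with a log2 fold change of -0.69 (limma adjusted p = 0.081). It was called without wild-type replicate 1 (-0.91, limma adjusted p = 0.014) and without knock-out replicate 3 (-0.84, limma adjusted p = 0.030). It was also called with wild-type replicate 1 and knock-out replicate 2 both left out (-0.79, limma adjusted p = 0.015). Col12a1 and Col16a1 changed by 0.27 and 0.06 and were not called, and Col14a1, which reached 10 counts in 3 libraries, was not tested.

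Of the 4 transmembrane collagens, Col17a1, known from the hemidesmosomes that anchor epithelia, was higher in the knock-out. It stood at 56.3, 60.8, 72.8, 63.3 and 77.1 counts in wild type and at 162, 176 and 202 (lowest, median, highest) in the knock-out. The groups were far apart, and the log2 fold change was 1.43 (SE 0.10, limma adjusted p = 1.1e-09). Col23a1 had the highest level per kb of all collagens in both genotypes, at 1803, 1804, 1929, 1928 and 1842 counts in wild type and 1516, 1878 and 1944 in the knock-out. These overlapped, with a narrow interval of -0.15 to 0.09 around a log2 fold change of -0.03 (limma adjusted p = 0.66). Col25a1, known from neurons, changed by -0.08 (95% interval -0.23 to 0.06), and Col13a1, which had 2.0 to 24.3 counts in wild type, by 0.27 (95% interval -0.59 to 1.13).

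Col8a1, a short-chain collagen of the network under corneal endothelium and around vessels, was also higher. It stood at 120, 166, 105, 156 and 120 counts in wild type and at 169, 218 and 242 in the knock-out. The highest wild-type library, at 166, was just under the lowest knock-out library, at 169, and the log2 fold change was 0.67 (SE 0.12, limma adjusted p = 0.0002). Its partner chain gene Col8a2 changed by 0.23 (95% interval -0.12 to 0.59, limma adjusted p = 0.28) and was called without knock-out replicate 5 (0.37, limma adjusted p = 0.037). Col10a1, of growth plate cartilage, reached 10 counts in 1 library and was not tested.

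The multiplexins Col15a1 and Col18a1 lie at the outer face of basement membranes. Col15a1 stood at 22.8, 45.1, 47.6, 40.4 and 37.1 counts in wild type and at 36.1, 72.8 and 151 in the knock-out. The groups overlapped and knock-out replicate 5 alone reached 151, against 76.2 for the next library. Its log2 fold change was 0.83 (SE 0.32, limma adjusted p = 0.044), and it was called in 13 of 23 alternatives. Among wild-type libraries, the call was lost on leaving out replicate 1 (0.66, limma adjusted p = 0.11), 2 (0.90, limma adjusted p = 0.054), 4 (0.86, limma adjusted p = 0.070) or 5 (0.83, limma adjusted p = 0.077). Among knock-out libraries, it was lost on leaving out replicate 1 (0.80, limma adjusted p = 0.083), 3 (0.81, limma adjusted p = 0.077) or 6 (0.81, limma adjusted p = 0.075).

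Col18a1, whose product releases endostatin, stood at 1019, 568, 671, 619 and 421 counts in wild type and at 388, 417 and 729 in the knock-out. The highest library of each genotype was the one highest on the second principal component. The log2 fold change was -0.48 (95% interval -0.997 to 0.04, limma adjusted p = 0.12). It was called lower without those 2 libraries (-0.44, limma adjusted p = 0.0032), without knock-out replicate 2 alone (-0.62, limma adjusted p = 0.024) and without wild-type replicate 5 (-0.63, limma adjusted p = 0.037).

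**Figure D4:**
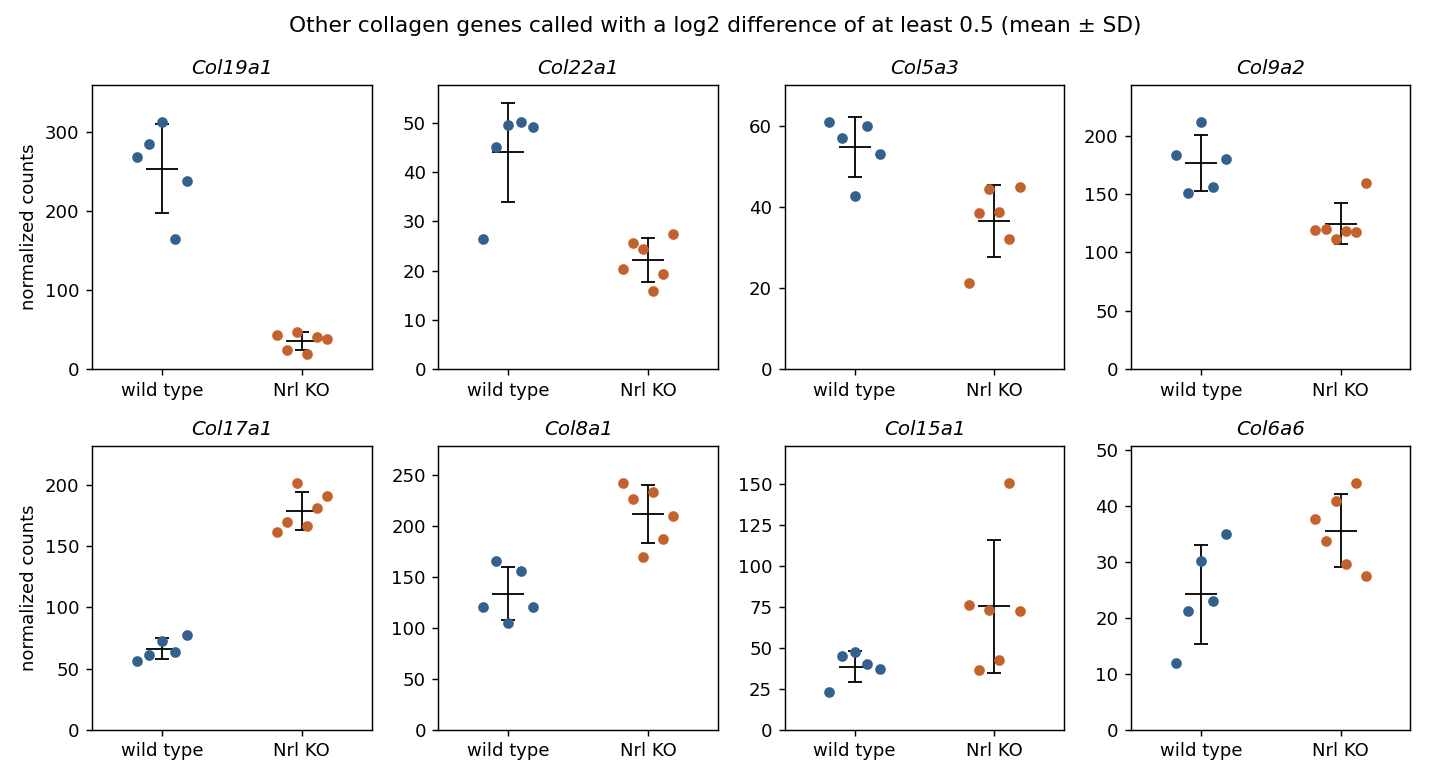
Normalized counts (y axis, linear, from 0) by library for the 8 called collagen genes outside collagen IV with a log2 fold change of at least 0.5 in size, with the mean and SD (n = 5 and 6). Col19a1, Col17a1 and Col8a1 show no overlap between genotypes, and the other 5 genes overlap.

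Fibrillar collagens held 1 called gene of 11 tested, where 46.3% of all tested genes were called. Col5a3, a minor chain of collagen V, which regulates fibril width, stood at 61.1, 57.1, 42.7, 60.0 and 53.1 counts in wild type and at 21.2, 38.7 and 45.1 in the knock-out. Only wild-type replicate 3 fell within the knock-out range, and the log2 fold change was -0.59 (SE 0.18, limma adjusted p = 0.012). Col2a1, the main chain of vitreous and cartilage fibrils and the most abundant fibrillar gene, stood at 582, 828, 865, 801 and 1089 counts and at 643, 800 and 951. Those groups overlapped throughout, with a log2 fold change of -0.06 (95% interval -0.41 to 0.30, limma adjusted p = 0.80).

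The chains of collagen I, the main fibril of sclera and other connective tissue, were low. Col1a1 had 3.68 to 19.4 counts in wild type and 9.33 to 24.4 in the knock-out, and Col1a2 had 61.1 to 135 and 55.2 to 150, neither called. Col3a1, which accompanies collagen I in soft tissue, had 23.9 to 32.3 counts in wild type and 4.82 to 35.2 in the knock-out. Its log2 fold change was -0.96 (limma adjusted p = 0.091), and it was called lower without knock-out replicate 2 (-1.20, limma adjusted p = 0.024) or replicate 4 (-1.22, limma adjusted p = 0.021). It was also called lower with wild-type replicate 1 and knock-out replicate 2 both left out (-1.16, limma adjusted p = 0.043). Col5a2 had a log2 fold change of 0.75 (limma adjusted p = 0.12), with 85.5 counts in knock-out replicate 5 against 16.3 to 32.3 in the other 5 knock-out libraries. In the authors' deposited table Col5a2 is called higher, with a log2 fold change of 0.82 and an adjusted p of 0.041.

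The remaining fibrillar chains were not called: Col5a1 changed by -0.25, Col11a1 and Col11a2, which nucleate collagen II fibrils, by 0.25 and 0.07, Col24a1 by -0.14 and Col27a1 by 0.41. Of these, Col5a1 was called without wild-type replicate 1 (-0.37, limma adjusted p = 0.044) and Col11a1 without knock-out replicate 2 (0.36, limma adjusted p = 0.049). Col7a1, of the anchoring fibrils under skin epithelium, was spread widely, at 113, 239, 281, 248 and 477 counts in wild type and at 187, 291 and 556 in the knock-out. Its log2 fold change was 0.24 (95% interval -0.66 to 1.13). Col28a1 had at most 8.34 counts and was not tested. Emid2, listed in the RefSeq gene table as an older symbol of Col26a1 and not taken by the symbol rule, fell from 81.2 ± 19.3 to 16.6 ± 6.0 counts, a log2 fold change of -2.28 (SE 0.25), and is named here after its values were seen.

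Collagen VI forms beaded filaments around cells. Its most abundant gene, Col6a1, stood at 568, 1053, 1027, 993 and 1202 counts in wild type and at 691, 866 and 1227 in the knock-out. The groups overlapped throughout, and the log2 fold change was -0.10 (95% interval -0.56 to 0.37). Col6a2 fell from 203 ± 22 to 167 ± 20 counts with overlapping groups, a log2 fold change of -0.28 (SE 0.10, limma adjusted p = 0.022). That call was lost with library totals made equal (-0.15, limma adjusted p = 0.23) and without wild-type replicate 2 (-0.26, limma adjusted p = 0.061) or replicate 3 (-0.24, limma adjusted p = 0.068).

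Col6a6 stood at 11.98, 21.2, 30.1, 22.9 and 35.0 counts in wild type and at 27.4, 35.7 and 44.1 in the knock-out. The groups overlapped, and the log2 fold change was 0.60 (SE 0.23, limma adjusted p = 0.040). It was called in 11 of 23 alternatives, and the authors' deposited table does not call it (adjusted p of 0.063). Leaving out wild-type replicate 1 (0.38, adjusted p = 0.12), 2 (0.57, adjusted p = 0.078) or 4 (0.60, adjusted p = 0.064), or knock-out replicate 1 (0.58, adjusted p = 0.067), 2 (0.61, adjusted p = 0.052), 3 (0.56, adjusted p = 0.074) or 5 (0.53, adjusted p = 0.082) ended the call, by limma. The Col6a6 call was also lost with wild-type replicate 1 and knock-out replicate 2 both left out (0.39, limma adjusted p = 0.13). Col6a4 changed by -0.21 and was called only without wild-type replicate 1 (-0.45, limma adjusted p = 0.050). Col6a3 and Col6a5 were just above the filter, with 10 counts in 6 and 5 libraries, and changed by 0.08 and 0.16.

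Per kb of transcript, Col23a1 was the most abundant collagen in both genotypes (329 and 322 counts per kb), followed by Col9a1, Col6a1 and Col2a1, which held ranks 2 to 4 in both. The spread of Col9a1 and Col6a1 overlapped, so their order cannot be told. Col4a5 moved from rank 16 in wild type to rank 5 in the knock-out and Col4a6 from 28 to 13. In the knock-out, the spread of Col4a5 (124 ± 12 counts per kb) overlapped that of Col4a1 (122 ± 15) and Col4a2 (113 ± 14). The order of these genes there cannot be told. Col4a3 moved from rank 13 to 32, Col4a4 from 21 to 36 and Col19a1 from 11 to 27. The plot of levels per kb places these genes far from the diagonal.

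**Figure D5:**
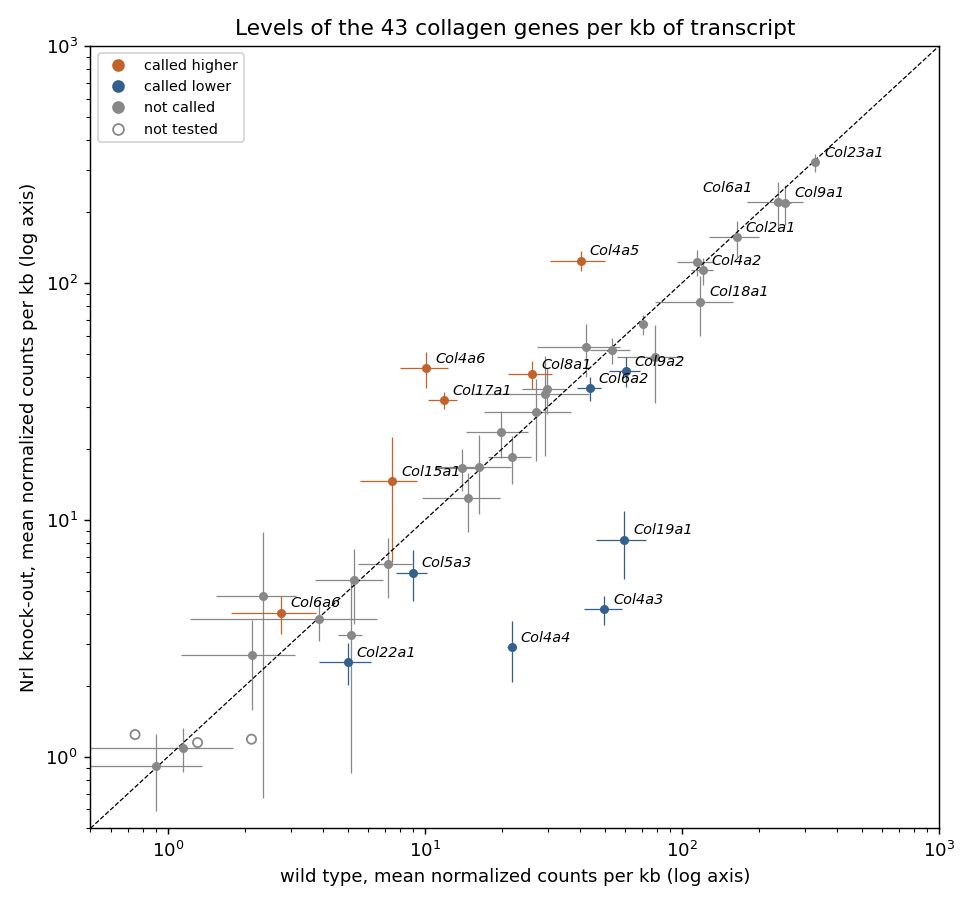
Mean normalized counts per kb of transcript in Nrl knock-out (y axis) against wild type (x axis), both log axes, for the 43 collagen genes, with SD bars for the 40 tested. Most genes lie near the dashed line of equality, Col4a5, Col4a6 and Col17a1 lie above it and Col4a3, Col4a4 and Col19a1 below it.

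The balance of chains that share a molecule was measured as the log2 ratio of their CPM + 1 in each library, for 12 pairs. Only the Col4a3 to Col4a4 ratio was called: it was 0.88 ± 0.23 in wild type (SD, n = 5) and 0.20 ± 0.21 in the knock-out (SD, n = 6), so Col4a3 fell further than Col4a4. The difference of -0.68 had an exact two-sided permutation p of 0.0022, the smallest that the 462 splits allow, and an adjusted p of 0.026 over the 12 pairs. It lost the call with 0.1 added in place of 1 (-0.63, exact permutation adjusted p = 0.057) and without wild-type replicate 1, 3, 4 or 5 or knock-out replicate 1, 4, 5 or 6, where the difference was -0.62 to -0.77 and the exact permutation adjusted p 0.057 to 0.095. With so few libraries, a single pair cannot pass the adjusted threshold by itself once a library is left out.

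The Col4a1 to Col4a2 ratio was 0.19 higher in the knock-out, that of Col8a1 to Col8a2 was 0.44 higher and that of Col9a3 to Col9a2 was 0.42 higher, each with an exact permutation adjusted p of 0.058. Each was called in a smaller design: Col9a3 to Col9a2 without wild-type replicate 2 (0.51, exact permutation adjusted p = 0.029), Col4a1 to Col4a2 without knock-out replicate 2 (0.21, p = 0.048 by the same test) and Col8a1 to Col8a2 without knock-out replicate 3 (0.50, p = 0.032). The Col5a1 to Col5a2 ratio, -0.62 with an exact permutation adjusted p of 0.078, was called without knock-out replicate 3 (-0.74, p = 0.032). The other 7 pairs had adjusted p-values of 0.11 or more by the same exact permutation test.

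Enzymes that fold and hydroxylate collagen chains in the endoplasmic reticulum were called higher for 9 of 19 tested and lower for 1, with a median log2 fold change of 0.15. This count and those of the gene lists after it stand beside 23.6% of all tested genes called higher, 22.7% called lower and a median of -0.0073, and with library totals made equal beside 5861 of 14584 genes called higher. Leprel2, a prolyl 3-hydroxylase, rose from 322 ± 68 to 733 ± 196 counts (log2 fold change 1.17), Leprel4, a protein of the same complexes, by 0.64 and the disulfide isomerase Pdia3 by 0.66. Serpinh1, the collagen-specific chaperone, rose by 0.38 and the lysyl hydroxylase Plod2 by 0.40. The 1 lower call, the galactosyltransferase Glt25d1 at -0.16, became 2 lower calls without wild-type replicate 5 and 0 with library totals made equal. Of the genes for procollagen processing and cross-linking, 5 of 12 were higher and 1 was lower, with a median of 0.23. The transglutaminase Tgm2 rose by 1.70, the procollagen C-proteinase Bmp1 from 307 ± 49 to 795 ± 88 counts (1.38), and Pcolce, its enhancer, from 146 ± 13 to 381 ± 84 counts (1.36). Adamts3, an N-proteinase, rose by 0.49, the lysyl oxidase gene Loxl4 rose by 1.29 and Loxl2 fell by 0.71.

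Collagen receptors were higher for 5 of 10 tested, with none lower and a median of 0.26. Gpr126, an adhesion receptor known to bind collagen IV, rose from 74.3 ± 8.1 to 176 ± 29 counts (log2 fold change 1.22), the integrin Itga2 by 0.70, the leukocyte receptor Lair1 by 0.60 and the receptor kinase Ddr1 by 0.27. Among proteases that cut collagen and their inhibitors, 6 of 13 were higher, with a median of 0.37, and 3 were lower, which is close to the 22.7% of all genes called lower. The inhibitor Timp1 rose from 7.25 ± 3.05 to 54.6 ± 10.97 counts (2.81), Adamts1 by 1.06, the gelatinase Mmp2 by 0.95 and Timp3 by 0.37. The gelatinase Mmp9 fell by 0.39. Of 14 profibrotic regulators 6 were higher, with Cyr61 at 0.98, Tgfbr2 at 0.75 and Tgfb2 at 0.35, and 3 were lower, with Fbn1 at -0.62 (limma adjusted p = 0.049). Fbn1 was at 823, 455, 485, 483 and 308 counts in wild type and at 269, 431, 347, 241, 343 and 301 in the knock-out. Its highest library of each genotype was the one highest on the second principal component. The 3 lower calls became 1 without wild-type replicate 2, 3 or 4 or knock-out replicate 1, 4, 5 or 6, and 0 with library totals made equal.

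Of other basement membrane partners of collagen IV, 4 of 15 were higher and 2 lower, with a median of 0.15. The laminin chains Lama2 and Lamb2 rose by 0.40 and 0.33, the proteoglycan Hspg2 by 0.33, and Agrn, the most abundant, was not called (0.21, limma adjusted p = 0.16). The 2 lower calls, Lamb1 at -0.20 and Smoc1 at -0.26, became 1 without wild-type replicate 1 or 2 and 0 with library totals made equal. Collagen-binding matrix proteins were higher for 5 of 15 and lower for 3, with a median of -0.08. Sparc, a collagen chaperone and matrix protein, rose from 5024 ± 546 to 9365 ± 1336 counts (0.89) and Sparcl1 fell by 0.21. Optc, a vitreous proteoglycan of the ciliary body, and Ogn were called lower, at -2.19 (limma adjusted p = 0.043) and -1.86 (limma adjusted p = 0.040). Optc was at 629, 190, 295, 223 and 49.1 counts in wild type and at 35.7, 267, 35.7, 40.8, 24.8 and 22.5 in the knock-out. The highest library of each genotype was again the one highest on the second principal component. The same held for Ogn (103 counts in wild-type replicate 1 and 66.5 in knock-out replicate 2) and for the matrix genes Fbln1 (668 and 298) and Mfap4 (183 and 107). The 3 lower calls of this list became 0 without wild-type replicate 1 or 2 or knock-out replicate 3 or 6, and 1 without wild-type replicate 3 or 4 or knock-out replicate 1, 4 or 5.

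Markers of cell types that make collagens differed between genotypes to different extents, and their counts stand beside the same 23.6% of all tested genes called higher and 22.7% called lower. Of 12 endothelial markers 1 was higher, Ly6c1 (log2 fold change 0.43), and 1 lower, Pecam1 (-0.31), and Kdr, the most abundant, was not called. Their summed counts ranged from 6865 to 7911 in wild type and from 6971 to 8163 in the knock-out. Of 12 mural markers 4 were higher, Anpep (0.86) and Higd1b (0.78) the most, and 2 lower. Their sum, most of it Vtn (-1.43), was 20846 to 25127 in wild type and 8008 to 10343 in the knock-out. The median log2 fold change of the 12 mural markers was 0.02, so the sum followed Vtn and not the list. Which cells made Vtn was not measured, so the sum is no measure of mural cells. Of 10 fibroblast markers 5 were tested, and Serping1 (2.64) and Pdgfra (0.53) were higher. Their sums were 565 to 1580 and 1474 to 2168, of which Serping1 alone made up a mean of 173 counts in wild type and 1079 counts in the knock-out. The median log2 fold change of the tested fibroblast markers was -0.25, Lum was at 0 in every library and Dcn was at means of 4.71 and 6.12.

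Glial and immune markers moved as follows. All 12 microglial markers were higher, with sums of 1056 to 1392 and 3840 to 5774. The complement genes C1qc (2.55), C1qa (2.45) and C1qb (2.43) changed the most, and Ctss (2.35) was the most abundant. Of 12 Müller glial markers 6 were higher, Clu (1.17), Apoe (1.012) and Vim (0.80) the most, and 2 lower, among them Glul (-0.27), the most abundant, with sums of 117187 to 126078 and 129715 to 148118. Of 8 astrocyte markers 4 were higher, Gfap (1.81), Slc1a2 (1.32) and Aldh1l1 (0.73) the most, and 2 lower. Their sums were 11853 to 12777 and 27266 to 28886, most of them Slc1a2 (means of 9379 and 23488). The median log2 fold change of the 8 astrocyte markers was 0.34, so the sums mainly followed Slc1a2. Which cells made Slc1a2 was not measured, so the sums are no measure of astrocytes. The part of these differences in the collagen results was not tested.

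Marker lists of neighbouring tissues held genes that retina itself expresses. Of 12 pigment epithelium and melanocyte markers 10 were tested and 3 were higher, Pmel (1.74), Dct (0.99) and Trpm1 (0.40). The sums were 6045 to 8796 in wild type and 9331 to 11489 in the knock-out, most of them Trpm1 (means of 6903 and 9075), which in retina is the channel of ON bipolar cells. The pigment epithelium gene Rpe65 had means of 56.8 and 48.0 counts and was not called. Of 12 ciliary body and lens markers 3 were tested and Aqp1 alone was lower (-6.55). The sum, most of it Aqp1 in wild type, was 2754 to 3354 there and 123 to 170 in the knock-out. Skeletal muscle markers, 5 of 10 tested with none called and Ckm the most abundant, summed to 135 to 163 and 110 to 131. Of 4 tested cartilage markers Lect1 (0.63) and Sox9 (0.31) were higher and Acan (-0.95) and Hapln1 (-0.50) lower, and Matn1 was at 0. The sums were 595 to 667 and 733 to 828, with Sox9 and Lect1 the most abundant. Of 12 neuronal markers 3 were higher, Opn1sw (3.77) and Arr3 (2.59) the most, and 6 lower, Gnat1 (-10.57) the most. The sums were 345995 to 397188 and 151194 to 185561, in which Gnat1 led the wild-type and Opn1sw the knock-out libraries. Their part in the collagen results was not tested.

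Collagens also varied together between libraries of one genotype. Wild-type replicate 1 was the lowest wild-type library for 24 of the 40 tested collagens and for 28.2% of all tested genes, and its median deviation from the wild-type mean was -0.34 on the log2 scale for collagens and 0.016 for all genes. Wild-type replicate 5 was the highest for 18 of the 40 and for 20.8% of all genes. Of the tested collagens, 40% had a transcript of at least 5 kb with a GC content of at least 55%, against 3.03% of all genes with a length. In wild-type replicate 1 the median deviation of all such long, GC-rich genes was -0.086. The part of length and base composition in these shifts was not tested. With wild-type replicate 1 and knock-out replicate 2 both left out, 5 collagens were called higher and 10 lower, and Col4a3, Col4a4, Col4a5, Col4a6, Col19a1, Col17a1 and Col8a1 were among them.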

How the data were processed

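mRNA of 11 mouse retina samples, 5 wild type and 6 Nrl knock-out, was measured, and sample titles gave the genotypes and replicate numbers. The authors deposited a signal per gene, read counts divided by a size factor for each library, and beside it their own log2 fold change and adjusted p-value, per the file headers. Per the submitters' processing notes, the build was mm9 and the tools were HTSeq 0.6.0, DESeq and TopHat2 2.1.1. Neither gene annotation nor strand setting is given in the sources used, so reads of overlapping genes, such as the Col10a1, Col4a1, Col7a1 and Col9a3 exons that overlap another gene, are uncertain.

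Every deposited value was a whole multiple of the signal of 1 read (100% of values, tolerance 1e-06 of a read), which gave whole reads per gene. Libraries held 14907613 to 20685840 reads, and a count of 0 allows up to 3 reads, counting error only. As the values are normalized, limma 3.58.1 (R 4.3.3; trend, robust, genotype as the only term) on log2(signal + 1) was the main, two-sided test. For low genes its log2 fold changes can be larger or smaller in size than those deposited. Col3a1 was at -0.96 by limma and -0.54 in the deposited values, and Col5a2 at 0.75 and 0.82. A gene was tested from 10 upward in 5 or more libraries, and calls used a Benjamini-Hochberg adjusted p under 0.05. Chain ratios used exact two-sided permutation tests over 462 splits, adjusted over 12 pairs. limma-voom, edgeR 4.0.16 and DESeq2 1.42.0 on the recovered reads, other scalings, filters and pseudocounts, a replicate block and left-out libraries were alternatives. The fit was tested on simulated data.

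Lengths are those of the longest protein-coding transcript per symbol in the GRCm38 annotation. Members and lists were chosen with earlier results of these data known. All members are named, with full values for those called with a log2 fold change of at least 0.5 in size and for the most abundant gene of each class. Of each other list, the 3 called genes with the largest change and the most abundant gene are named, and Serpinh1, Plod2, Loxl4, Loxl2, Mmp9, Glt25d1, Lamb1, Smoc1, Fbln1, Mfap4, Lum, Dcn, Matn1 and Rpe65 were added after their values were seen. Libraries of a group were no duplicates: their counts differed by more than sampling noise, with a chi-square per gene of 2.84 or more.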

Additional observations from a re-analysis of the deposited data

Results flagged for a closer look

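In 11 of 80 groups tested, a library lay far from the others of its genotype for a collagen. Chance gives about 1 in 20 groups if values are normally distributed. Collagens varied together between libraries, so the 80 groups were not independent, and the 11 cannot be weighed against that rate. Wild-type replicate 1 was the low library for 6 of the 11. In it, Col6a1 was at 568 normalized counts (others 993 to 1202), Col20a1 at 205 (others 400 to 507) and Col27a1 at 127 (others 336 to 427). Col22a1 was at 26.4 there (others 45.1 to 50.2), Col16a1 at 14.4 (others 27.3 to 35.0) and Col6a5 at 1.20 (others 8.74 to 12.02). Among knock-out libraries, replicate 1 was low for Col23a1 at 1516 (others 1812 to 1944) and for Col6a5 at 2.89 (others 7.41 to 10.8). Knock-out replicate 2 was high for Col18a1 at 729 (others 388 to 456), replicate 5 was low for Col8a2 at 43.2 (others 73.1 to 84.9), and replicate 6 was high for Col9a2 at 160 (others 111 to 120). Their cause was not tested.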

How the results depend on the processing

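Of the 13 collagen calls, 9 held in every alternative run for them, and Col5a3 was lost at an adjusted p under 0.01. Collagens called numbered 10 to 15 with 1 library left out, 4 to 6 of them higher and 6 to 10 lower, and all-gene calls 6185 to 6741. At an adjusted p under 0.01, 4 collagens were higher and 5 lower. No label says that same-numbered libraries were paired. Correlations of same-numbered libraries were -0.13 to 0.22 and those of different-numbered ones -0.36 to 0.41, which cannot settle whether samples were paired. With the replicate block, 6 collagens were called higher and 9 lower: Col15a1 lost its call (0.81, limma adjusted p = 0.10), Col11a1 (0.28), Col5a1 (-0.28) and Col9a1 (-0.28) gained one, and Col16a1 and Col1a2 turned to -0.0056 and -0.0062. Knock-out replicate 6 had no same-numbered wild-type library, so the block took it out of the comparison. Without that library and with no block, the log2 fold changes of Col15a1, Col16a1 and Col1a2 were the same. DESeq2 gained calls for Col20a1 (-0.68) and Col5a2 (1.03) and lost that of Col6a6 (0.54, DESeq2 adjusted p = 0.053). Col6a6 also lost its call with edgeR (0.54, edgeR quasi-likelihood adjusted p = 0.051) and with no filter on low values (0.60, limma adjusted p = 0.053). Lower calls among collagen-binding matrix proteins numbered 3 in limma, 1 with edgeR or the replicate block, and 0 at an adjusted p under 0.01.

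Log2 fold changes near 0 changed sign in places, and none of those was called. With library totals made equal they were 0.10 for Col23a1, 0.053 for Col25a1, 0.080 for Col2a1, 0.042 for Col4a2, 0.040 for Col6a1 and 0.11 for Col9a3, and all genes gave 5861 higher and 1711 lower. edgeR gave -0.046 for Col13a1, -0.052 for Col6a3 and -0.0088 for Col6a5, and DESeq2 -0.038 for Col13a1 and -0.060 for Col6a3. With replicate 1 of the wild type and replicate 2 of the knock-out both left out, the values were -0.021 for Col11a2, -0.12 for Col16a1, -0.17 for Col6a3, -0.38 for Col6a5 and 0.017 for Col9a3. With 1 library left out the ranges were -0.11 to 0.24 for Col11a2, -0.15 to 0.23 for Col16a1, -0.0056 to 0.17 for Col4a1, -0.15 to 0.32 for Col6a3, -0.31 to 0.40 for Col6a5, -0.044 to 0.47 for Col7a1, -0.10 to 0.046 for Col9a3, -0.14 to 0.20 for Col1a2, -0.19 to 0.58 for Col13a1, -0.18 to 0.048 for Col2a1 and -0.052 to 0.019 for Col23a1. The chain ratios of Col1a1 to Col1a2 and of Col6a3 to Col6a1 ranged from -0.087 to 0.27 and from -0.074 to 0.11. With 5 added to CPM they were -0.017 and -0.024, and Col4a5 to Col4a6 was 0.13. Ratio pairs called were 0 with 0.1 added, 2 with 5 added, 2 without both libraries and 0 to 3 with 1 left out. The causes were not tested. Low genes such as Col6a5 and Col13a1 had few reads, which limits what a difference could show.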
